A study of Homo sapiens with 12 samples.

Results

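RNA of 10 genes that carry decitabine into the cell, activate or destroy it, or make the deoxynucleotides it competes with, was followed across 12 sequencing libraries of MOLM-13 cells. They were chosen by name: the equilibrative nucleoside carriers SLC29A1 and SLC29A2, the activating kinase DCK, the deaminases CDA and DCTD, the triphosphate hydrolase SAMHD1, the ribonucleotide reductase subunits RRM1, RRM2 and RRM2B, and thymidylate synthase, TYMS. The rows of the table that bear each symbol were summed, which gave 10 of the 46639 gene symbols and 39 of its 100502 transcript rows. All 10 genes had reads, and 9 of the 10 reached 10 normalised counts in 3 or more libraries and were tested. DCK did not, and is described from its reads alone. CDA passed only through the untreated and DAC libraries, in which it was high.

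MOLM-13 is a human acute myeloid leukemia line with a t(9;11) translocation that joins MLL to AF9. Per the labels all cells grew in RPMI medium with 20% FCS and 5 ng/ml GM-CSF, and 1 group stayed untreated. The others were given decitabine at 100 nM (DAC, a deoxycytidine analog that traps DNA methyltransferases), all-trans retinoic acid at 1 µM (ATRA, a ligand of nuclear retinoid receptors) or the combination (DAC+ATRA). A group had 3 libraries, which the labels call technical triplicates, so p-values measure the spread within 1 experiment on 1 cell line. Labelled times were 96 h for untreated and 72 h for treated cells. No library of cells given only DMSO, the solvent of ATRA, was among the 12. Per the methods of the study, ATRA was added with the last dose of DAC only. Culture time and solvent therefore cannot be told apart from treatment.

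Reads counted to transcript rows came to 8.95 to 11.9 M (mega) per library in untreated and 4.67 to 6.95 in DAC-treated cells. They came to 8.36 to 10.7 M with ATRA and 5.61 to 7.16 with DAC+ATRA, so the DAC-treated groups had fewer counted reads. These are reads assigned to a row, not all reads sequenced. Of 12 genes of myeloid leukemia identity, 11 had over 3 reads in every library, and CD68 was listed at 0 throughout. Of 10 genes of other lineages, 7 had at most 3 reads in every library. The summed level of those 10 was 25.1 to 33.3 normalised counts in untreated libraries, 51.2 to 73.7 with DAC, 88.7 to 111.6 with ATRA and 93.8 to 120.5 with both drugs, and its part in the results was not tested. MS4A1 and ALB were at 0 in all libraries. CD79A, a B-lineage gene, had 3.07 ± 1.57 (SD, n = 3) normalised counts in untreated cells, 16.5 ± 9.24 with DAC, 15.6 ± 3.96 with ATRA and 33.8 ± 6.68 with both drugs, and the collagen gene COL1A1 8.03 ± 2.93, 21.2 ± 3.13, 79.0 ± 12.5 and 48.6 ± 9.51. Each was called higher by limma in all 3 treatments against untreated. Neither reached 10 normalised counts in all 3 untreated libraries. Both passed the filter on low values through treated libraries, so these calls are not independent of it. CD3D, a T-lineage gene that was also tested, had 16.5 ± 5.60 in untreated, 25.1 ± 10.9 with DAC, 5.66 ± 4.45 with ATRA and 22.9 ± 4.50 with both drugs. Its level was lower with ATRA, and no treatment was called against untreated (limma, adjusted p = 0.457, 0.0103 and 0.416 in that order).

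Decitabine enters cells through nucleoside carriers, of which the equilibrative ones move it along its gradient, and is a prodrug until deoxycytidine kinase adds the first phosphate. Cytidine deaminase turns the free nucleoside into an inactive uridine analog, deoxycytidylate deaminase does the same to the monophosphate, and SAMHD1 removes the triphosphate group in one step, as it does from natural deoxynucleotides. Ribonucleotide reductase makes the deoxynucleotides that compete with the drug for incorporation into DNA, and thymidylate synthase makes the thymidine nucleotide. SAMHD1 is abundant in resting and differentiated myeloid cells, and the reductase and thymidylate synthase are characteristic of cells in S phase.

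The sequence before the start of transcription is shown for CDA and SAMHD1, which changed most, in opposite directions, after ATRA, and for TYMS, which shares a motif with CDA. Since DAC acts on the methylation of cytosine before guanine, each CG is in capitals. The stretches come from RefSeq on GRCh38.p14 and run 5′ to 3′ on the gene's own strand, from 250 bases before the annotated start to 10 bases after it. They cover chr1:20588847-20589106 (plus strand), chr20:36951699-36951958 (minus strand) and chr18:657403-657662 (plus strand).
CDA: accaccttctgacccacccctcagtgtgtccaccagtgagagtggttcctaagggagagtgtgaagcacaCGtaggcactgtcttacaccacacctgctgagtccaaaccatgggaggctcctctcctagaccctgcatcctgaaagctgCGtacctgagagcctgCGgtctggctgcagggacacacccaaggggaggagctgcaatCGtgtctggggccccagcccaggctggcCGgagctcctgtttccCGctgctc
SAMHD1: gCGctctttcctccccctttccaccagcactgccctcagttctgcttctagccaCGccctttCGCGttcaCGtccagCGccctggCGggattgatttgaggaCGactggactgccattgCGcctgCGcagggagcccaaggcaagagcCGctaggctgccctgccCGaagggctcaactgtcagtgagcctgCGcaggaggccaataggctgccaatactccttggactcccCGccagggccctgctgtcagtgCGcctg
TYMS: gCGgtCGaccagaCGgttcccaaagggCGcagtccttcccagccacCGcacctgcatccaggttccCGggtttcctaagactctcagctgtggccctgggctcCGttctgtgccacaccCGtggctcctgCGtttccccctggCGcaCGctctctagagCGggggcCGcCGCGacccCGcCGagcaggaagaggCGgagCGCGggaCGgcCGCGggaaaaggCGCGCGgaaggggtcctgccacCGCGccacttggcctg

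These windows of 260 bases held 6 CG in CDA, 15 in SAMHD1 and 28 in TYMS. In the full RefSeq windows, which reach 50 bases past the start, CDA had 8, SAMHD1 22 and TYMS 34 CG. Over 35116 human promoters of that length the median was 14 and the quartiles were 4 and 28, so CDA lay below the median and TYMS above the upper quartile. RRM1 had 21 and DCK 37, DCTD had 30 and 47, SLC29A1 27 and 34, and RRM2 31 and 41 in their annotated starts. Of the 10 genes 8 had an entry. SLC29A2 and RRM2B had none.

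An E2F-type motif, TTTCCCGC, read on both strands, was in 1.63% of the 35116 promoters. It was found in CDA, where it begins 3 bases before the start on the plus strand, and in TYMS, where it lies on the opposite strand from 39 bases before the start. The variant TTTGGCGC, in 0.652% of promoters, was found in DCK. The CCAAT motif, in 34.6% of promoters, was found in SAMHD1 at 2 places, in RRM1 and in RRM2. The retinoic acid receptor half-site AGGTCA (13.8% of promoters) was found in DCK, and the half-site GGGTCA (14.1%) in CDA, DCTD and RRM1. The STAT-type motif TTCNNNGAA (7.66%) was in none of these windows. A match is a string of letters and was not tested as a binding site.

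Among the uptake carriers, SLC29A1 RNA was higher in both groups that received DAC. SLC29A1 (chr6:44219553-44234142, plus strand, GENCODE 44 on GRCh38) encodes the carrier ENT1, which lets nucleosides pass in both directions. Values are normalised counts, which are reads divided by 1 size factor per library. They were 28.8, 32.5 and 20.7 in the untreated libraries, 73.8, 70.6 and 42.5 with DAC, 13.4, 23.1 and 18.4 with ATRA, and 58.8, 58.5 and 61.3 with DAC+ATRA. No DAC-treated library overlapped an untreated one, and the ATRA libraries overlapped the untreated ones.

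On the log2(normalised count + 1) scale, SLC29A1 rose by 1.14 ± 0.28 (SE) with DAC (limma, adjusted p = 0.00951) and by 1.12 ± 0.28 with DAC+ATRA (adjusted p = 0.00377) over untreated. Between ATRA and DAC+ATRA it rose by 1.68 ± 0.28 (adjusted p = 2.8e-04). ATRA alone gave a difference of -0.56 (95% interval -1.15 to 0.03) that was not called, and DAC+ATRA differed from DAC by -0.02 (-0.62 to 0.57). In order of means the groups were ATRA, untreated, DAC+ATRA and DAC, and neither ATRA and untreated nor DAC+ATRA and DAC differed beyond their spread. The call for DAC was kept in 8 of 25 alternative fits, with adjusted p from 0.00121 to 0.0546: the leading transcript row alone gave 0.0464, and leaving out 1 untreated library gave 0.0247, 0.0164 or 0.0546, DAC library 1 or 2 0.0457 or 0.0442, ATRA library 2 or 3 0.0103 or 0.0119, and 1 DAC+ATRA library 0.0141, 0.0148 or 0.0154. The call for DAC+ATRA was lost with the leading transcript row (0.0122), without untreated library 3 (0.0245) and without DAC+ATRA library 1, 2 or 3 (0.0125, 0.0132 and 0.0159). SLC29A1 had 474 reads from 6 of its 8 rows, which had 368 exonic bases of their own. With each row as its own feature, ENST00000371755.9 (leading) and ENST00000371708.1 were not called for DAC (limma, adjusted p = 0.0555 and 0.380). Nor were they for DAC+ATRA against untreated (0.0140 and 0.529). Against ATRA, DAC+ATRA was called in the leading row (8.4e-04) and not in the other (0.0471).

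SLC29A2 (chr11:66362521-66372214, minus strand), which encodes the second equilibrative carrier, ENT2, had low counts in all groups. Its values were 13.998, 12.2 and 27.6 in untreated, 22.9, 7.84 and 3.27 in DAC-treated, 8.96, 24.6 and 9.20 in ATRA-treated and 2.80, 13.5 and 3.06 in doubly treated libraries. The groups overlapped in all 5 pairwise comparisons, and none was called. The widest difference, DAC+ATRA against untreated, was -1.55 with an interval of -2.87 to -0.24 (limma, adjusted p = 0.0565). The gene had 174 reads over the 12 libraries, from 2 of its 5 rows, which had 100 exonic bases of their own. Its level refers to the reads given to those bases.

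**Figure D1:**
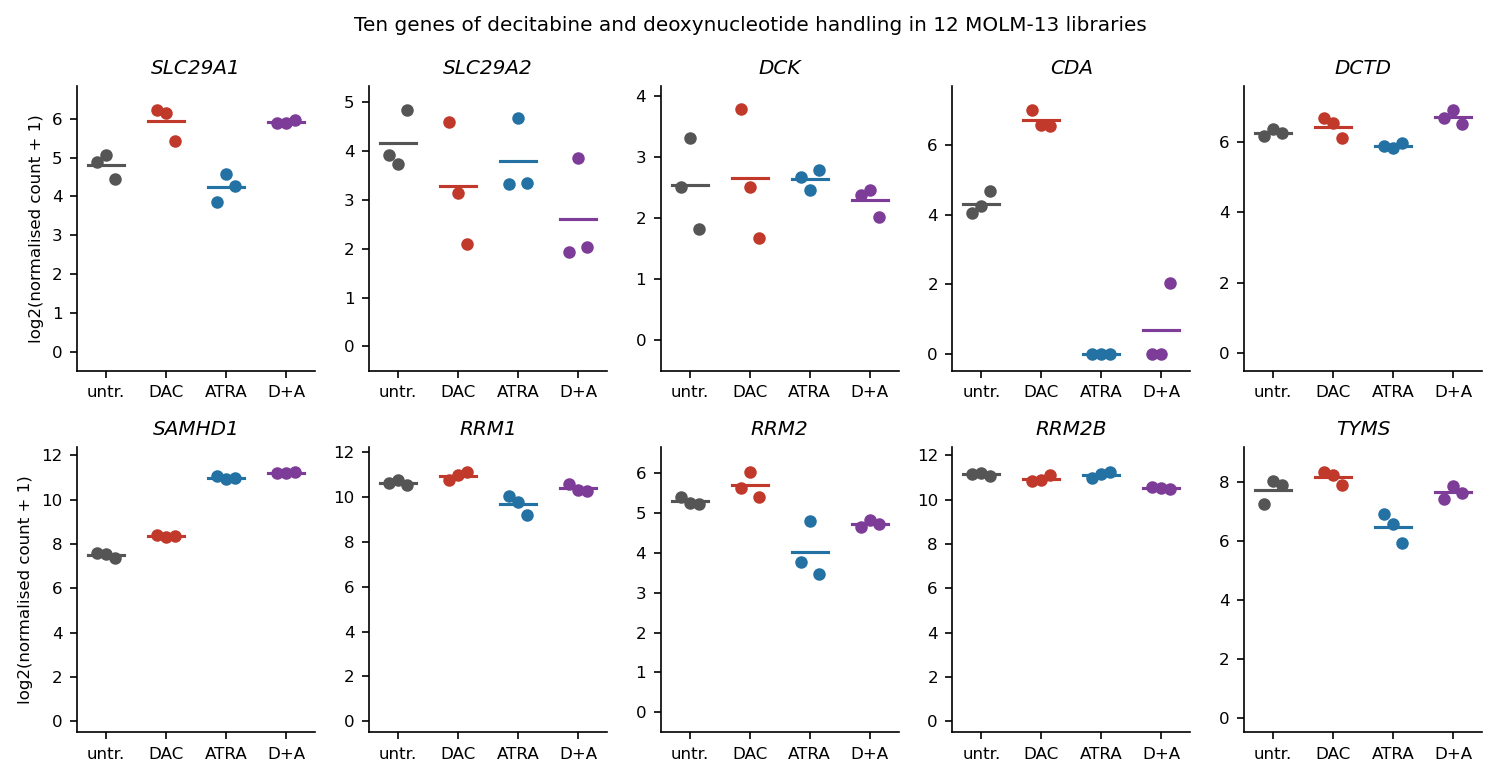
Levels of the 10 genes in each library, as log2(normalised count + 1) on the vertical axes, for untreated (untr.), DAC, ATRA and DAC+ATRA (D+A) libraries. Each point is 1 library and each line the mean of 3. CDA is at 0 in the 3 ATRA libraries, and SAMHD1 reaches its highest levels in the ATRA and DAC+ATRA libraries.

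DCK (chr4:70992538-71030914, plus strand), the kinase that adds the first phosphate to decitabine, had 65 reads over all 12 libraries. The reads were 6, 11 and 4 in untreated, 10, 3 and 2 in DAC-treated, 6, 6 and 7 in ATRA-treated and 3, 4 and 3 in doubly treated libraries, or 2.18 to 12.7 normalised counts. The groups overlapped. The ratio of pooled counts was 1.25 (exact 95% counting interval 0.60 to 2.55) for DAC over untreated, 1.02 (0.52 to 1.99) for ATRA over untreated and 0.76 (0.32 to 1.68) for DAC+ATRA over untreated. These intervals cover counting error only, and a change of DCK within them was not detectable with so few reads.

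The few DCK reads came from 1 of its 3 transcript rows, DCK's ENST00000504952.1, which has 97 exonic bases that no other DCK row covers. The other 2 rows were listed at 0. Of the 37 rows of the 10 genes that matched GENCODE 44, 22 had exonic bases of their own, and all 22 had reads. Another 15 had no base of their own, and 14 of these were at 0, the exception being a DCTD row with 642 reads. The level of DCK therefore refers to the reads given to 97 bases, and levels are compared here between libraries and not between genes. DCK also shares 199 exonic bases with MOB1B on the same strand.

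**Figure D2:**
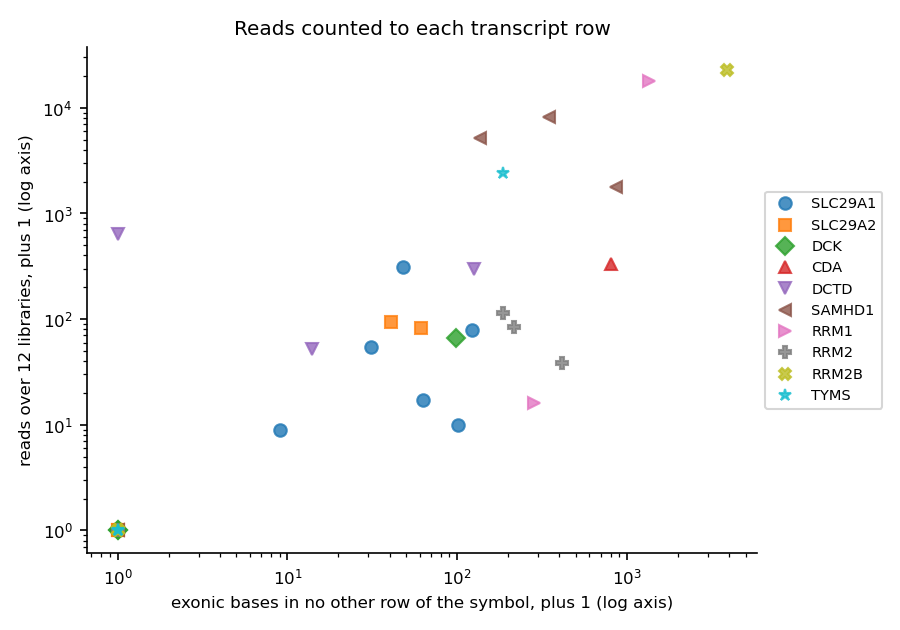
Reads over the 12 libraries (vertical axis, plus 1, log scale) of each of the 37 matched transcript rows, against its number of exonic bases that no other row of the same gene covers (horizontal axis, plus 1, log scale). Rows with no base of their own stack at the lower left at 0 reads, apart from the DCTD row with 642 reads.

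Of the inactivating enzymes, CDA and SAMHD1 were both higher with DAC, and moved in opposite directions with ATRA. CDA (chr1:20589086-20618903, plus strand) encodes cytidine deaminase, which destroys decitabine before it is phosphorylated. Its values were 15.6, 17.9 and 24.5 in untreated and 127.2, 94.1 and 93.6 in DAC libraries. All 3 ATRA libraries were at 0, and the DAC+ATRA libraries were at 0, 0 and 3.06. The DAC libraries all lay above the untreated ones, and the ATRA-treated libraries all lay below them.

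The CDA mean rose 5.44-fold with DAC, a log2 change of 2.39 ± 0.53 (SE; limma, adjusted p = 0.00425). With ATRA it fell from 81 reads in the 3 untreated libraries to none. Against a floor of 3 reads per library the untreated mean was at least 7.79-fold higher than ATRA, and the DAC mean at least 42.4-fold higher. DAC+ATRA had 3 reads in all, so the ratio of pooled counts was 17.0 (counting interval 5.60 to 83.9) for untreated over DAC+ATRA and 90.4 (30.6 to 441.3) for DAC over DAC+ATRA. The fitted changes were -4.32 for ATRA (adjusted p = 2.5e-06), -3.64 for DAC+ATRA (adjusted p = 2.0e-05) and -6.04 for DAC+ATRA against DAC (adjusted p = 4.2e-08), sizes that depend on the added 1 and are no bounds.

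The 3 calls of lower CDA were kept in all 25 alternative fits. The call of higher CDA with DAC was lost with a pseudocount of 0.1 (adjusted p = 0.158), without any 1 untreated library (0.0265, 0.0245 and 0.0124), and without DAC library 1 (0.028) or 2 (0.0166). In order of means the groups were ATRA, DAC+ATRA, untreated and DAC, and the first pair, both at the floor, was not called different (adjusted p = 0.412).

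SAMHD1 (chr20:36890229-36951893, minus strand) had the largest rise of the 10 genes after ATRA. Its values were 192.1, 186.7 and 163.1 in untreated, 338.4, 319.9 and 326.6 in DAC-treated, 2130, 1942 and 2029 in ATRA-treated and 2367, 2359 and 2401 in doubly treated libraries. No treated library overlapped an untreated one, and the libraries of a group lay close together.

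The SAMHD1 mean was 1.82 times the untreated mean with DAC, 11.3 times with ATRA and 13.2 times with DAC+ATRA. The log2 changes were 0.86 ± 0.10 (SE; limma, adjusted p = 8.7e-06), 3.49 ± 0.10 (adjusted p = 3.0e-15) and 3.71 ± 0.10 (adjusted p = 1.6e-15). Addition of ATRA to DAC raised it by 2.85 ± 0.10 (adjusted p = 8.3e-14). DAC+ATRA lay above ATRA in all 3 libraries, by 0.23 (95% interval 0.01 to 0.44), which was not called (adjusted p = 0.132). The 4 calls were kept in all 25 alternatives.

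The effect of DAC on SAMHD1 was 0.64 smaller on the log2 scale in the presence of ATRA than in its absence, an interaction of -0.64 ± 0.14 that missed the threshold (limma, adjusted p = 0.0162). It passed in 4 of 24 alternatives: DESeq2 gave an adjusted p of 0.00121, edgeR with TMM factors 0.00842, limma with TMM factors 0.00916, and the fit without DAC library 3 0.00869. The range over all alternatives was 0.00121 to 0.0554.

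All 3 SAMHD1 transcript rows with reads rose with ATRA. The leading row, SAMHD1-221 (ENST00000646673.2), went from 126.0, 134.0 and 117.3 in untreated to 1197, 1104 and 982.3 in ATRA libraries, SAMHD1-201 from 43.5, 23.5 and 23.8 to 669.2, 607.2 and 784.2, and SAMHD1-212 from 22.6, 29.2 and 22.0 to 263.4, 230.7 and 262.5. With each row as its own feature the log2 changes were 3.11 ± 0.12, 4.51 ± 0.26 and 3.32 ± 0.18 (limma, adjusted p = 1.0e-13, 2.7e-11 and 1.3e-11). The leading row held 69.6% of the gene's counts in untreated, 72.7% in DAC-treated, 53.8% in ATRA-treated and 50.1% in doubly treated libraries, so the rows did not rise by the same factor. SAMHD1 shares 1068 exonic bases with TLDC2 on the other strand, and TLDC2 had 38 reads in all.

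**Figure D3:**
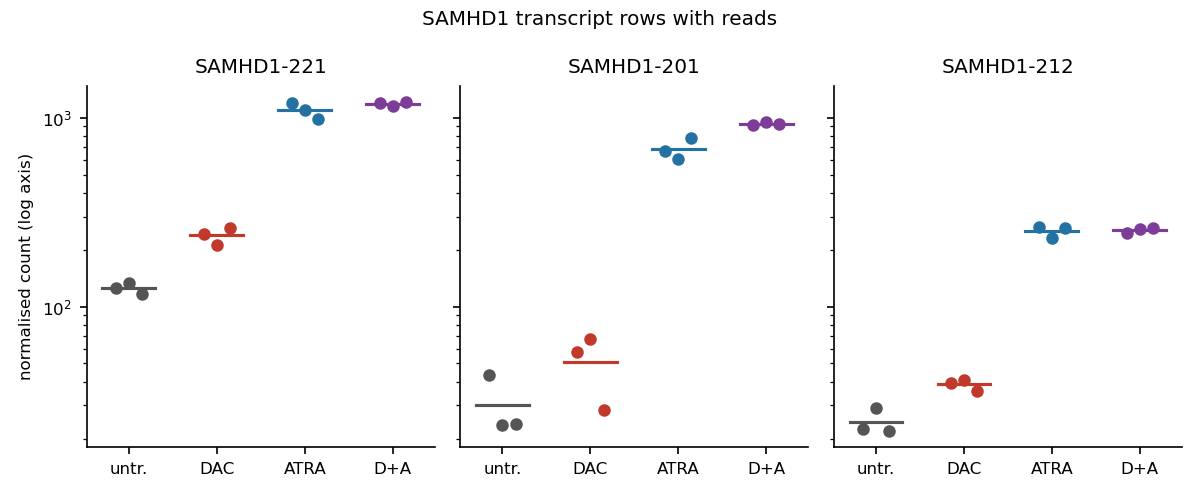
Normalised counts (log axis) of the 3 SAMHD1 transcript rows that had reads, by library, in untreated (untr.), DAC, ATRA and DAC+ATRA (D+A) cells. Each point is 1 library and each line the mean of 3. In all 3 rows every ATRA and DAC+ATRA library lies above every untreated and DAC library.

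Beside SAMHD1, which interferons can induce, a list of 20 interferon-stimulated genes was counted. Of the 18 tested, none was higher and 10 were lower with DAC (median log2 change -1.45), 3 were higher and 3 lower with ATRA (-0.60), and 3 were higher and 2 lower with DAC+ATRA (-0.16). Against DAC alone, 13 of 18 were higher with DAC+ATRA (median 1.25). Of 17 tested genes of myeloid maturation, 5 were higher and 1 lower with DAC, 5 and 4 with ATRA, and 6 and 3 with DAC+ATRA. S100A12, counted as higher with DAC, had 0.69 ± 0.64 (SD, n = 3) normalised counts in untreated and 24.4 ± 5.14 in DAC libraries. It passed the filter on low values only through the DAC libraries, so its call is not independent of that filter. Over all genes tested, 7.97% were called with DAC, 26% with ATRA, 28.9% with DAC+ATRA and 18.8% with DAC+ATRA against DAC. The part of interferon response or maturation in the SAMHD1 level was not tested.

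DCTD (chr4:182890060-182917936, minus strand), which deaminates deoxycytidine monophosphate and decitabine monophosphate, changed less. It had 71.5, 82.0 and 74.6 normalised counts in untreated, 100.5, 91.0 and 68.6 in DAC-treated, 58.2, 55.8 and 61.9 in ATRA-treated and 102.2, 118.2 and 89.9 in doubly treated libraries. The ATRA libraries were the lowest and did not overlap any other group. Only DAC+ATRA against ATRA was called, a rise of 0.80 ± 0.19 (SE) on the log2 scale (limma, adjusted p = 0.00586). Without 1 ATRA library the adjusted p was 0.0146, 0.0273 or 0.0148, without DAC+ATRA library 1 or 2 it was 0.0203 or 0.0401, and with the leading transcript row alone 0.0473. Against untreated, the log2 differences were 0.17 (95% interval -0.24 to 0.58) with DAC, -0.37 (-0.78 to 0.04) with ATRA and 0.43 (0.03 to 0.84) with DAC+ATRA.

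The log2 ratio of CDA to DCK, the inactivating to the activating enzyme, was 1.78 ± 0.99 (SD, n = 3) in untreated, 4.06 ± 0.84 in DAC-treated, -2.63 ± 0.17 in ATRA-treated and -1.61 ± 1.40 in doubly treated libraries. The log2 ratio of SAMHD1 to DCK was 4.96 ± 0.66, 5.71 ± 1.03, 8.36 ± 0.13 and 8.93 ± 0.25 in the same order. As the DCK level refers to 97 bases, both ratios are compared between groups only and are no ratios of RNA amounts. In two-sided exact permutation tests over 15 ratio comparisons the smallest possible p, 0.1, was reached wherever the groups did not overlap (adjusted p = 0.125), and no comparison of 3 with 3 libraries can pass 0.05. The CDA ratio in ATRA depends on the added value: with 0.1 in place of 1 its difference from untreated was -7.71 in place of -4.41.

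Of the 3 ribonucleotide reductase subunits, the large subunit RRM1 and the S-phase small subunit RRM2 fell with ATRA, and the alternative small subunit RRM2B did not. RRM1 (chr11:4094707-4138932, plus strand) had 1589, 1729 and 1514 normalised counts in untreated, 1742, 2020 and 2210 in DAC-treated, 1077, 884.0 and 588.6 in ATRA-treated and 1564, 1280 and 1234 in doubly treated libraries. The ATRA libraries were lower than all others. The RRM1 change with ATRA was -0.96 ± 0.16 (SE; limma, adjusted p = 1.2e-04), a call kept in all 25 alternatives.

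With DAC added to ATRA, RRM1 rose by 0.71 ± 0.16 (limma, adjusted p = 0.00414), which was lost without ATRA library 2 or 3 (0.0116 and 0.0273), without DAC+ATRA library 1 or 2 (0.033 and 0.0125), and with only the groups compared in the fit (0.013). DAC alone gave 0.30 (95% interval -0.04 to 0.65) and DAC+ATRA against untreated -0.25 (-0.60 to 0.09), and neither was called. DAC+ATRA against DAC gave -0.55 (adjusted p = 0.0165), which passed the threshold in 5 of 25 alternatives, among them without ATRA library 1 (0.00629) or 3 (0.0023). In order of means the groups were ATRA, DAC+ATRA, untreated and DAC, and only the first step in that order was called. Nearly all RRM1 reads, 99.9%, were on 1 transcript row.

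RRM2 (chr2:10120698-10211725, plus strand) had 41.2, 36.5 and 36.4 normalised counts in untreated, 48.3, 64.3 and 41.4 in DAC-treated, 12.5, 26.8 and 10.03 in ATRA-treated and 23.8, 27.0 and 25.5 in doubly treated libraries. The untreated and DAC libraries all lay above the ATRA-treated ones. With ATRA it fell by 1.28 on the log2 scale (SE 0.32; limma, adjusted p = 0.00357). This call was lost without untreated library 1, 2 or 3 (0.0173, 0.0124 and 0.0108) and without ATRA library 1 or 3 (0.0164 and 0.0275). No other comparison of RRM2 was called: DAC+ATRA against untreated gave -0.56 (95% interval -1.23 to 0.11), DAC+ATRA against DAC -0.96 (-1.63 to -0.30) and DAC against untreated 0.40 (-0.27 to 1.07). Its 401 reads came from 4 of 5 rows.

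RRM2B (chr8:102204502-102238961, minus strand), whose subunit supplies deoxynucleotides outside S phase and for DNA repair, had 2283, 2379 and 2147 normalised counts in untreated, 1831, 1901 and 2184 in DAC-treated, 2001, 2302 and 2389 in ATRA-treated and 1513, 1487 and 1410 in doubly treated libraries. The DAC+ATRA libraries were the lowest, and overlapped no other group. They were lower than untreated by a log2 change of -0.63 ± 0.10 (SE; limma, adjusted p = 7.1e-05), lower than ATRA by -0.60 ± 0.10 (adjusted p = 3.3e-04) and lower than DAC by -0.42 ± 0.10 (adjusted p = 0.00416). The first 2 calls were kept in all 25 alternatives. The third was lost without DAC library 3 (0.0121), without DAC+ATRA library 1, 2 or 3 (0.0107, 0.0162 and 0.0264), with only the groups compared (0.0149) and with the leading transcript row (0.0102).

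Neither drug alone gave a call for RRM2B: the log2 difference from untreated was -0.21 (95% interval -0.42 to 0.01) with DAC and -0.03 (-0.24 to 0.19) with ATRA. The log2 ratio of RRM2B to RRM2 was 5.86 ± 0.12 (SD, n = 3) in untreated, 5.26 ± 0.41 in DAC-treated, 7.11 ± 0.70 in ATRA-treated and 5.80 ± 0.12 in doubly treated libraries. The matched rows had 3874 exonic bases of their own in RRM2B and 812 in RRM2. The ratio is therefore compared between groups only, and is no ratio of RNA amounts. The ATRA libraries, the highest, and the DAC libraries, the lowest, each overlapped no other group (exact permutation p = 0.1 for each against untreated, the smallest possible). DAC+ATRA overlapped untreated (exact permutation p = 0.5).

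TYMS (chr18:657653-673578, plus strand), which methylates deoxyuridine monophosphate to thymidine monophosphate, followed the pattern of RRM1. Its values were 150.1, 260.6 and 236.5 in untreated, 321.9, 302.7 and 236.2 in DAC-treated, 119.2, 95.2 and 59.4 in ATRA-treated and 170.8, 234.1 and 198.1 in doubly treated libraries. The ATRA libraries were the lowest and overlapped no other group. TYMS fell by 1.25 on the log2 scale with ATRA (SE 0.24; limma, adjusted p = 3.1e-04), which was kept in all 25 alternatives. Against ATRA, DAC+ATRA was higher by 1.18 ± 0.24 (adjusted p = 0.00132), lost without ATRA library 3 (0.0112) or DAC+ATRA library 2 (0.0119).

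DAC+ATRA and untreated did not differ in TYMS beyond their spread (-0.07, 95% interval -0.57 to 0.42), nor did DAC and untreated (0.44, -0.06 to 0.93). All TYMS reads came from 1 row with 184 bases that no other TYMS row covers, of which 90 lie in no listed row of another gene on either strand. TYMS shares 967 exonic bases with ENOSF1 and 193 with TYMSOS, both on the other strand, with 885 and 553 reads. The strand setting of the count is not given in the sources used here.

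Beside RRM1, RRM2 and TYMS, which cells use in S phase, 20 other S-phase genes, none among the 10, were counted. The list holds replication helicase, polymerase and licensing genes, PCNA, FEN1, SLBP, CHAF1A, E2F1 and the cyclin genes CCNE1 and CCNE2. With ATRA 12 of 20 were lower and 1 higher, with a median log2 change of -0.80, against -0.038 over all 10642 genes tested. With DAC 1 of 20 was higher and none lower (median 0.36), and with DAC+ATRA 1 was lower and none higher (-0.11). Against ATRA, 10 of 20 were higher with DAC+ATRA (0.84), and against DAC 1 was higher and 5 lower (-0.59). The shares of all genes called were 26% with ATRA, 7.97% with DAC, 28.9% with DAC+ATRA, 11.9% against ATRA and 18.8% against DAC. The part of S-phase content in the levels of RRM1, RRM2 and TYMS was not tested. In bulk RNA, fewer cells in S phase and less RNA per cell cannot be told apart.

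**Figure D4:**
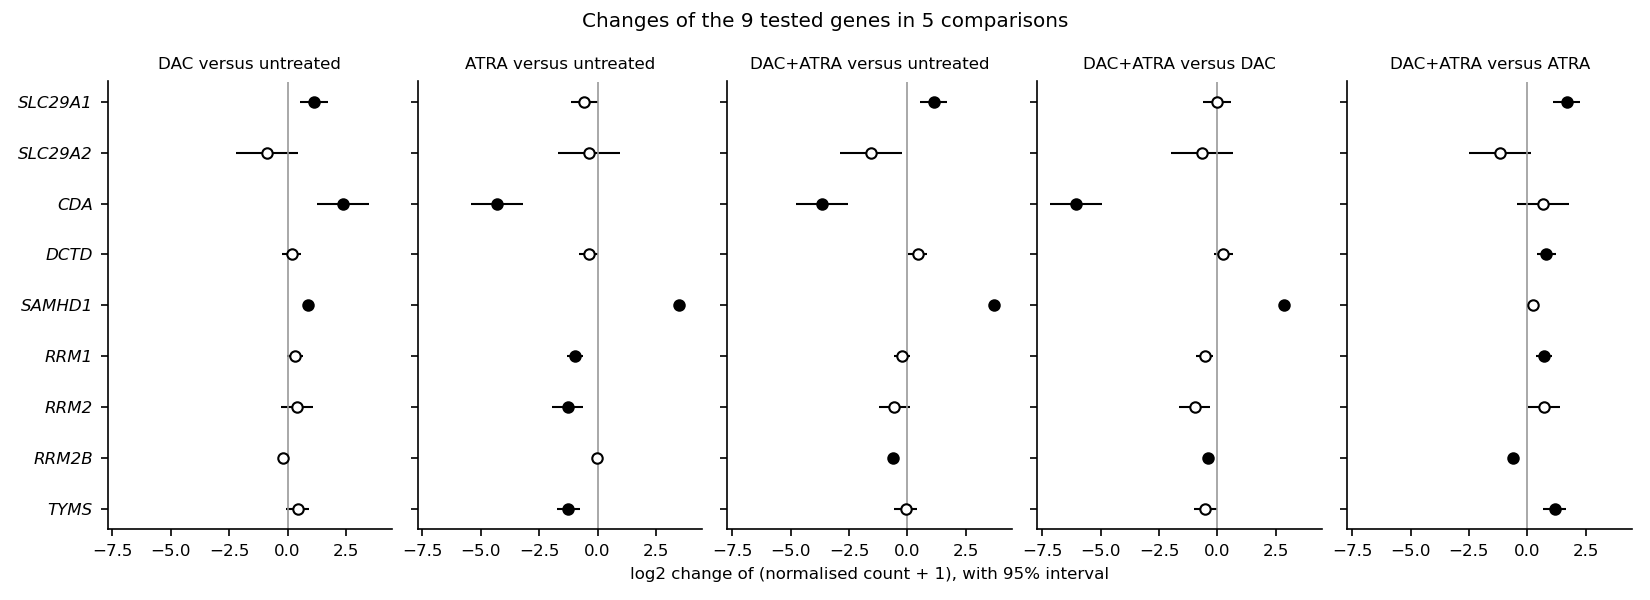
Log2 changes of (normalised count + 1) of the 9 tested genes in the 5 pairwise comparisons, with 95% intervals from limma. Filled points had an adjusted p under 0.01 and open points did not. SAMHD1 lies furthest to the right, and CDA furthest to the left, in the 3 comparisons that add ATRA.

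Counted over the 9 tested genes, DAC raised 3 (CDA, SAMHD1, SLC29A1) and lowered none, while 7.97% of all genes tested were called, 4.29% higher and 3.67% lower. ATRA raised 1 (SAMHD1) and lowered 4 (CDA, RRM1, RRM2, TYMS), with 26% of all genes called, 12.1% higher and 14% lower. DAC+ATRA raised 2 (SAMHD1, SLC29A1) and lowered 2 (CDA, RRM2B) over untreated, with 28.9% called, 14.5% higher and 14.4% lower. Against DAC it raised 1 and lowered 2, with 18.8% called, 9.04% higher and 9.74% lower. Against ATRA it raised 4 and lowered 1, with 11.9% called, 6.47% higher and 5.46% lower. The 3 comparisons with untreated share its libraries.

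The libraries of the groups compared did not overlap for 5 of 9 genes with DAC (30.4% of all genes), for 6 of 9 with ATRA (50.7%) and for 6 of 9 with DAC+ATRA (55.8%), each against untreated. For DAC+ATRA it was 6 of 9 against DAC (39.6%) and 6 of 9 against ATRA (39.9%). The median log2 change of the 9 was 0.40 with DAC, -0.56 with ATRA and -0.25 with DAC+ATRA, beside -0.0041, -0.038 and -0.0039 over all genes tested. With ATRA and with DAC+ATRA, CDA stayed the lowest of the 9 when set at its bound, so these medians could not change. No interaction of DAC and ATRA was called among the 9 by limma (1.6% of all genes, 0.724% positive and 0.874% negative). At an unadjusted p under 0.05 there were 5 of the 9, beside 14.8% of all genes, DESeq2 and edgeR with TMM factors each called 1, and edgeR with DESeq2 size factors called 0.

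Other genes of uptake, phosphorylation, breakdown and synthesis were taken from 4 lists of 63 genes, 55 of which were tested. With DAC 4 were higher and 1 lower (median log2 change 0.11). With ATRA 3 were higher and 8 lower (-0.19), and with DAC+ATRA 5 were higher and 4 lower (0.13). Of all genes tested, 7.97%, 26% and 28.9% were called in these comparisons.

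Among carriers and pumps, SLC28A3, the concentrative carrier CNT3 that takes up pyrimidine and purine nucleosides with sodium, was highest with DAC and, like CDA, listed at 0 with ATRA. It had 10.1, 4.06 and 2.51 normalised counts in untreated, 87.8, 94.1 and 62.0 in DAC, none in the 3 ATRA and 13.998, 4.503 and 17.4 in DAC+ATRA libraries. The DAC libraries were above all others, with a log2 change of 3.80 ± 0.53 (SE; limma, adjusted p = 5.0e-05), called in all 25 alternatives. Against a floor of 3 reads per library the untreated mean was at least 2.25-fold and the DAC mean at least 32.8-fold higher than ATRA. The call of lower SLC28A3 with ATRA was lost with a pseudocount of 5 (adjusted p = 0.0246). The drug efflux pump ABCC5 rose with DAC (49.3 ± 3.0 to 98.9 ± 16.7 normalised counts, SD, n = 3; lost in 4 alternatives, among them without untreated library 1, adjusted p = 0.0101, and without DAC library 2, 0.0138) and with DAC+ATRA (120.4 ± 12.2). The pump ABCC4 rose with ATRA (359.6 ± 29.3 to 565.2 ± 31.7, adjusted p = 4.2e-04).

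Among kinases, DTYMK, which phosphorylates thymidine monophosphate, rose from 777.4 ± 66.0 to 1188 ± 121.1 normalised counts with DAC (SD, n = 3; limma, adjusted p = 0.00356), a call that was lost without untreated library 1 or 3 (0.0125 and 0.0241) or DAC library 1 or 2 (0.0193 and 0.0141). The mitochondrial kinase CMPK2, also known as an interferon-stimulated gene, fell from 200.2 ± 45.2 to 113.1 ± 9.58 with DAC (adjusted p = 0.00639), and was not called in 10 of 25 alternatives, including without untreated library 1 or 2 (0.0317 and 0.0528), DAC library 1 or 2 (0.0228 and 0.0247) or any DAC+ATRA library (0.0102, 0.0106 and 0.011). With DAC+ATRA, AK4 fell from 19.1 ± 9.20 to 2.49 ± 2.18 and the mitochondrial adenylate kinase family member AK3 rose from 50.7 ± 6.71 to 88.5 ± 15.4. The AK4 call was lost without untreated library 2 or 3 (0.0101 and 0.0135) or DAC+ATRA library 1 (0.0104), and the AK3 call without untreated library 2 or 3 (0.0288 and 0.0302), ATRA library 2 (0.0103) or DAC+ATRA library 2 or 3 (0.0415 and 0.0303).

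Among breakdown and synthesis enzymes, uridine phosphorylase, UPP1, rose from 35.4 ± 8.46 to 124.1 ± 31.6 normalised counts with ATRA (SD, n = 3; limma, adjusted p = 2.9e-04), and adenosine deaminase, ADA, from 281.1 ± 12.3 to 485.9 ± 75.5 (adjusted p = 1.2e-04). The mitochondrial serine hydroxymethyltransferase SHMT2 fell from 139.4 ± 26.8 to 46.2 ± 1.43 (adjusted p = 1.2e-04). These 3 ATRA calls were kept in all 25 alternatives. DPYD, which degrades uracil and thymine, fell from 867.5 ± 69.0 to 472.5 ± 26.0 with DAC+ATRA (adjusted p = 4.2e-06). With ATRA alone it fell to 400.4 ± 35.9 (limma, adjusted p = 1.7e-07), and DAC+ATRA was not called different from ATRA (adjusted p = 0.14). The pump ABCC10 rose with DAC+ATRA from 42.5 ± 5.41 to 77.1 ± 14.3, a call that was lost without any 1 untreated library (0.0354, 0.0123 and 0.016) or DAC+ATRA library 2 or 3 (0.0269 and 0.0414), and SHMT2 fell to 66.6 ± 11.6, lost without untreated library 1 or 2 (0.0251 and 0.0181) or DAC+ATRA library 2 or 3 (0.0242 and 0.0136). The fourth gene that rose with DAC was the ecto-nucleotidase NT5E, 1.30 ± 2.25 in untreated and 15.7 ± 3.76 in DAC libraries, named after its values were seen. It passed the filter on low values only through the DAC libraries, so its call is not independent of that filter.

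**Figure D5:**
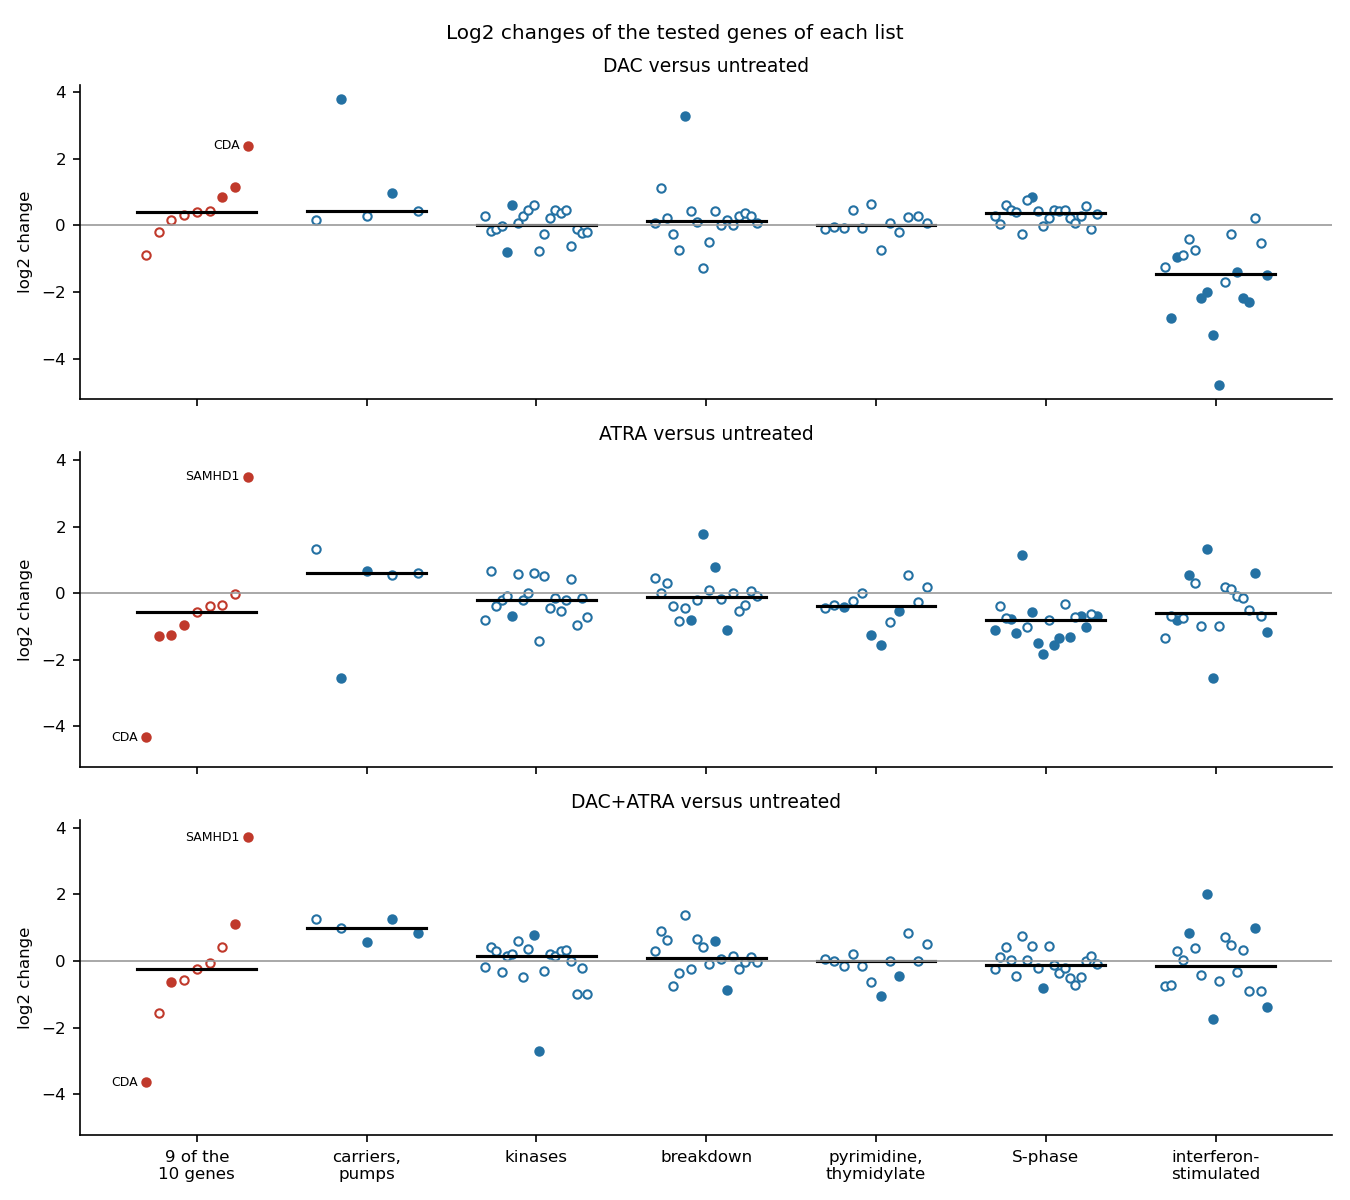
Log2 changes (vertical axis) of the tested genes of each list against untreated, for DAC, ATRA and DAC+ATRA. Red points are 9 of the 10 genes and blue points the other lists, filled points had an adjusted p under 0.01, and black lines are medians. CDA and SAMHD1 lie apart from the other red points with ATRA, and the S-phase median lies at -0.80 there.

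The gene whose log2 level was most like that of each tested gene was found over the 12 libraries, which share the groups and size factors. Pearson's r was 0.997 for SAMHD1 with PDLIM5, 0.991 for CDA with FKBP5, 0.985 for RRM1 with ESCO2, 0.974 for TYMS with CLN6, 0.967 for RRM2 with ORC6, and 0.966 for RRM2B with DNAJC1. It was 0.956 for SLC29A1 with DNASE2, 0.954 for DCTD with TRAF4 and 0.922 for SLC29A2 with TMEM9. Among the 10 genes, RRM1 was most like TYMS (0.889), RRM2 most like RRM1 (0.848), and SLC29A1 and DCTD most like each other (0.849).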

How the data were processed

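Strand-specific, ribosomal RNA-depleted libraries of 12 MOLM-13 samples were compared. The authors used STAR (hg38) for alignment and HTSeq for counts per Ensembl transcript, and divided each library by 1 DESeq2 size factor. The deposited values are therefore a normalised signal, not raw counts. In every library 100% of values were whole multiples of 1 step (tolerance 0.01 read), so reads were recovered, and recomputed size factors differed by at most 0.000338%. The annotation release of the authors and the strand setting are not given in the sources used here. Columns named CTRL were taken as untreated. Positions are from GENCODE 44 (GRCh38, the same assembly as hg38), which matched 88.9% of rows.

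Rows were summed per symbol. Limma 3.58.1 (R 4.3.3; lmFit, eBayes with trend) was run on log2(normalised count + 1), in 1 fit of all 12 libraries with a coefficient per group. Changes of genes with low counts come out too small on this scale. The filter kept 10642 protein-coding genes that reached 10 normalised counts in 3 or more libraries, with Benjamini-Hochberg adjustment per comparison and a threshold of 0.01 for a call. Alternatives were edgeR 4.0.16 and DESeq2 1.42.0 on recovered reads, other scaling, pseudocounts (0.1 and 5) and filters, and each library left out in turn, 25 fits in all. The test was also tried on simulated data. A group with at most 3 reads in each library was taken as at the floor.

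The 10 genes and all lists were chosen with earlier results of these data known. Of the 4 nucleotide lists, the text names for each treatment against untreated the up to 3 largest called changes in each direction, provided that the mean reached 1 CPM and the libraries did not overlap. Promoters and CG counts are from RefSeq on GRCh38.p14. Some genes that this rule or the lists hold are not reported here.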

Additional observations from a re-analysis of the deposited data

How the results depend on the processing

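No called change of the 10 genes turned its direction in any alternative. Of 1383 values, 1318 kept their side of the threshold, 52 were weaker and 13 stronger. The number of genes called with DAC among the 9 tested was 3, and 1 with a pseudocount of 0.1. Leaving out 1 library gave 1 to 3 (1 without any 1 untreated library or DAC library 1 or 2). At an adjusted p under 0.05, 5 in place of 3 genes were called for DAC+ATRA against DAC. For DAC+ATRA against ATRA, leaving out 1 library gave 2 to 5 in place of 5 (2 without ATRA library 3 or DAC+ATRA library 2, 3 without ATRA library 2 or DAC+ATRA library 1). For the interaction, 1 in place of 0 was called at an adjusted p under 0.05, with limma and TMM factors, with a pseudocount of 5, with edgeR and TMM factors, and with DESeq2, and leaving out 1 library gave 0 to 1.

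Of the 55 other nucleotide genes, 5 were called with DAC. This became 9 at an adjusted p under 0.05, 3 with the leading transcript row and 1 with only the groups compared, and leaving out 1 library gave 1 to 7. For ATRA, 11 became 22 at an adjusted p under 0.05. For DAC+ATRA against untreated, 9 became 14 at an adjusted p under 0.05 and 14 with only the groups compared, and leaving out 1 library gave 3 to 12. Against DAC, 6 became 11 at an adjusted p under 0.05. Against ATRA, 4 became 9 at an adjusted p under 0.05 and 2 without a filter on low values, and leaving out 1 library gave 2 to 7. For the interaction, 0 became 1 at an adjusted p under 0.05, and leaving out 1 library gave 0 to 1. The log2 ratio of CDA to DCK depends on the added value, because CDA was at 0: with a pseudocount of 0.1 its differences were -7.71 for ATRA against untreated, -5.63 for DAC+ATRA against untreated, -7.97 against DAC and 2.08 against ATRA. Apart from this and from the smaller number of libraries, the cause of the changes was not tested.

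Replicate numbers did not pair the samples: 18 correlations of the deviations of same-numbered samples ran from -0.263 to 0.114. With the replicate number as a block, 2 in place of 3 genes were called with DAC, as SLC29A1 had an adjusted p of 0.0114. The counts of the 9 genes called in the other comparisons were 5, 4, 3, 5 and 0, as without the block. With each transcript row as its own feature, an alternative chosen after seeing the data, the counts over the 6 comparisons were 2, 5, 3, 2, 4 and 0 in place of 3, 5, 4, 3, 5 and 0. Over all 10642 genes, 848 were called with DAC, 1638 at an adjusted p under 0.05, 371 with only the groups compared, 540 without untreated library 1, 509 without untreated library 2 and 1385 without DAC library 3. For DAC+ATRA against DAC, 1998 became 3055 at an adjusted p under 0.05, and against ATRA 1270 became 2244, and 819 without ATRA library 2 or without DAC+ATRA library 2. The interaction had 170, and 386 at an adjusted p under 0.05, 323 with DESeq2, 106 without untreated library 2, 262 without DAC library 3 and 112 without DAC+ATRA library 2. On the recovered reads, edgeR with TMM factors called 953 genes with DAC, 2967 with ATRA and 3239 with DAC+ATRA against untreated, and DESeq2 called 1205, 3143 and 3382, beside 848, 2772 and 3077 by limma. DCK is limited by its 65 reads, all from 1 row with 97 exonic bases of its own.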

Other observations

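Across the lists of other nucleotide genes, the comparisons of the combination with either single drug named further genes. Against DAC, DAC+ATRA had 2 of 55 higher and 4 lower: CMPK2 and UPP1 were higher, and SLC28A3, DUT and DPYD were among the lower. DUT, which hydrolyses deoxyuridine triphosphate, had 698.5 ± 100.5 normalised counts with DAC and 436.8 ± 48.2 with DAC+ATRA (SD, n = 3; limma, adjusted p = 0.00207). Against ATRA, DAC+ATRA had 3 of 55 higher and 1 lower: SLC28A3, DTYMK and NME1 were higher, and UPP1 lower. Of all genes tested, 18.8% were called against DAC and 11.9% against ATRA. NME1, a nucleoside diphosphate kinase, had 123.2 ± 46.9 normalised counts with ATRA and 215.8 ± 31.9 with DAC+ATRA (adjusted p = 0.00611). All of these genes were named after their values were seen.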
